A study of Homo sapiens with 6 samples.

Results

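The genes described here are 41 genes of homologous recombination and of the Fanconi pathway, taken from the deposited gene table by gene name. All 41 were present among its 58735 genes. Of them, 39 reached 1 FPKM in at least 3 of the 6 libraries and were tested. FPKM, fragments per kilobase of gene, is a level corrected for gene length and scaled by 1 factor per library. The libraries are RNA sequencing of BxPC-3 cells, an established line from a human pancreatic adenocarcinoma: 3 from cells given DMSO, the solvent, and 3 from cells given GSK3326595, a small-molecule inhibitor of the arginine methyltransferase PRMT5. The series as titled concerns methylation of the Hippo kinase MST2 by PRMT5, and the comparison described here asks how transcripts of these repair genes differed between inhibitor and DMSO. Both groups were grown in RPMI-1640 with fetal bovine serum, and neither dose nor duration is given in the sources used here. The series' design text speaks of a knockdown, whereas each library's label names the inhibitor, and the labels were followed. Nothing in the labels states that the 3 libraries of each group are separate cultures, and the p-values therefore reflect the spread among these libraries alone, which may be technical.

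Homologous recombination repairs a DNA double-strand break by copying the sister chromatid. The broken ends are sensed and cut back by MRE11, RAD50, NBN and RBBP8, the single strand is covered by the RPA complex, and BRCA2 with PALB2, XRCC2 and its relatives and RAD54L then prepare the strand to pair with the intact duplex. The Fanconi pathway repairs links between the strands of the DNA double helix: a core complex places ubiquitin on FANCI and FANCD2, nucleases gathered by SLX4 then cut beside the link, and recombination completes the repair. Many of these genes are transcribed mostly in cells that replicate their DNA, and the pathway is known in pancreatic cancer because inherited loss of some of its genes, such as BRCA2, PALB2 and ATM, raises the risk of the disease.

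Reads recovered from the deposited values numbered 14087260 to 15724750 per library. PRMT5 stood at 23.2, 24.6 and 26.2 FPKM in the DMSO libraries and 13.4, 12.8 and 12.1 FPKM in the inhibitor libraries, so its transcript was lower in all 3 inhibitor libraries (log2 fold change −0.90, SE 0.11, limma adjusted p = 0.00493); a transcript level does not check inhibition of the enzyme. Inhibitor replicate 2 stood apart from the other libraries: transcripts encoded by the mitochondrial genome made up 11.3% of its reads and 4.70% to 6.03% elsewhere, and nuclear coding genes at the short end (below 1500 bases) made up 1.09% of its nuclear coding reads, against 2.27% to 2.61%. The main results are therefore given with and without this library. Of the 8 markers of ductal epithelium looked up, KRT7, KRT8, KRT18 and MUC1 were measured, EPCAM and CDH1 stood below 1 FPKM in the mean of each group, and KRT19 and CEACAM6 had 0 reads in all 6 libraries, which goes against the labelled cell type. The summed level of 7 fibroblast markers was 5.09 to 5.68 FPKM in DMSO and 10.3 to 15.5 FPKM with the inhibitor, nearly all of it COL1A1 and PDGFRB, with 3 of the 7, LUM and PDGFRA among them, at 0 reads throughout; its part in the results below was not tested. The 6 immune markers summed to at most 1.42 FPKM and the 4 endothelial markers to at most 1.46 FPKM in any library.

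With all 6 libraries, 5 of the 39 genes tested were called, that is, had an adjusted p under 0.05 for inhibitor against DMSO (limma on log2(FPKM + 1) values, Benjamini-Hochberg adjustment across the whole table). FANCL, FANCI and XRCC2 rose, and KAT5 and RAD54L fell. That is 12.8% of the genes, against 17.2% of the 13578 genes tested in the whole table (7.18% higher and 10.0% lower), a share no larger than that background. Without inhibitor replicate 2, 13 were called, 10 higher and 3 lower, or 33.3% against 40.6% of all genes. Read by direction, 25.6% of the genes were then higher, where 17.5% of all genes were, and 7.69% were lower, where 23.1% of all genes were. The 8 added by leaving out that library were FANCA, FANCF, FANCG, FANCD2, BRCA1, BRIP1 and RPA1, all higher, and RPA2, which was lower. Limma-voom on recovered reads called 5 genes with all libraries, with BRIP1 in and RAD54L out, beside 18.8% of all genes. With inhibitor replicate 2 left out it called 15, the 13 above with FAN1 and RPA3, beside 48.7%. The median log2 fold change of the genes tested was 0.18, and 0.08 without inhibitor replicate 2, beside −0.05 in both cases for all genes. In 13 genes the 3 inhibitor libraries all lay above the 3 DMSO libraries and in 5 all lay below, beside 19.2% and 26.7% of all genes (45.9% together). With inhibitor replicate 2 left out, the groups did not overlap in 16 genes above and 7 below, beside 65.0% of all genes in either direction. In these bulk samples a change in the share of cells that express a gene and a change in its RNA per cell cannot be told apart.

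**Figure D1:**
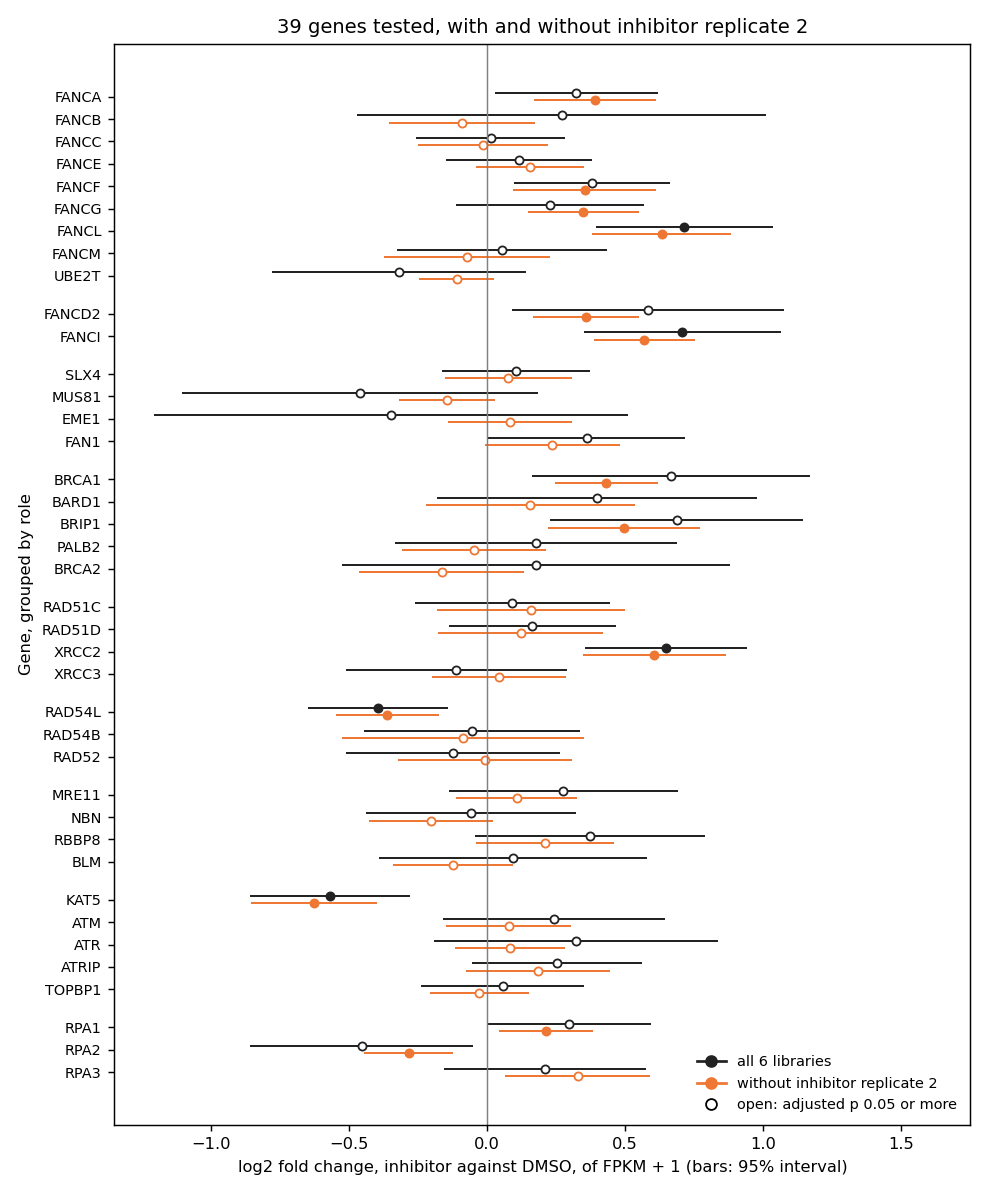
The plot of log2 fold changes (x axis, of FPKM + 1; bars are 95% intervals) shows the 39 genes tested, grouped by role on the y axis, with all 6 libraries (black) and without inhibitor replicate 2 (orange); filled points were called at an adjusted p under 0.05. With all libraries the filled points are FANCL, FANCI and XRCC2 to the right of 0 and RAD54L and KAT5 to the left, and the bars of FANCB, EME1, MUS81 and BRCA2 are much shorter without that library.

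The level of these genes in DMSO, per length, spanned from 0.416 to 41.8 FPKM. The most abundant were the single-strand binding subunit RPA1 at 41.8 ± 2.15 FPKM (SD, n = 3), the ubiquitin-conjugating enzyme UBE2T at 32.5 ± 0.344 FPKM, the subunit RPA2 at 26.8 ± 1.02 FPKM and the ATR activator TOPBP1 at 21.3 ± 1.13 FPKM. At the low end stood RAD50 at 0.416 ± 0.0953 FPKM, RAD51B at 1.02 ± 0.196, RAD54B at 1.08 ± 0.336 and BRCA2 at 1.28 ± 0.0112 FPKM. RAD50 and RAD51B did not pass the filter and were not tested. RAD50 stood at 0.504, 0.314 and 0.429 FPKM in the DMSO libraries and 0.393, 0.788 and 0.615 FPKM in the inhibitor libraries. RAD51B stood at 0.864, 0.950 and 1.24 FPKM in the DMSO libraries and 0.849, 1.18 and 0.976 FPKM in the inhibitor libraries. The groups overlapped for both genes. The former rested on 45 to 103 reads per library and the latter on 101 to 137. RAD54B passed with only 3 libraries at 1 FPKM, 2 of them DMSO.

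FANCL and FANCI, an enzyme of the Fanconi core complex and one of the proteins it modifies, were both higher with the inhibitor. FANCL (ENSG00000115392, chromosome 2, 58159243 to 58241372, minus strand, hg38) is the RING ubiquitin ligase of the core complex. It stood at 5.57, 6.37 and 5.21 FPKM in the DMSO libraries and 9.97, 11.3 and 8.82 FPKM in the inhibitor libraries. Every inhibitor library lay above every DMSO library, and the ratio of the group means was 1.76 (log2 fold change 0.71, SE 0.13, limma adjusted p = 0.0176; 0.63 without inhibitor replicate 2). FANCI (ENSG00000140525, chromosome 15, 89243949 to 89317261, plus strand) is the partner of FANCD2 that receives ubiquitin at a stalled fork. It stood at 9.14, 8.15 and 8.72 FPKM in the DMSO libraries and 13.1, 18.1 and 13.6 FPKM in the inhibitor libraries. Inhibitor replicate 2 was the highest and the groups did not overlap (log2 fold change 0.71, SE 0.15, adjusted p = 0.0243; 0.57 without that library). FANCD2 stood at 5.11, 5.28 and 5.68 FPKM in the DMSO libraries and 7.35, 12.0 and 6.93 FPKM in the inhibitor libraries. Its groups did not overlap either, and inhibitor replicate 2 lay far above the others. The gene was not called with all libraries (log2 fold change 0.58, adjusted p = 0.0955) and was without that library (0.36, adjusted p = 0.0141).

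Among the other subunits of the core complex, FANCA, FANCF and FANCG were not called in the fit of all libraries and were called higher when inhibitor replicate 2 was left out. FANCA, the subunit most often mutated in Fanconi anaemia, stood at 13.1, 13.2 and 14.5 FPKM in the DMSO libraries and 16.8, 15.6 and 19.5 FPKM in the inhibitor libraries. The groups did not overlap (0.39 without inhibitor replicate 2, adjusted p = 0.017; adjusted p = 0.115 with it, and 0.042 with it after quantile normalization). FANCF, an adaptor of the complex, stood at 2.64, 2.31 and 2.08 FPKM in the DMSO libraries and 3.31, 3.52 and 3.22 FPKM in the inhibitor libraries. These did not overlap either (0.35, adjusted p = 0.0398; adjusted p = 0.0689 with all libraries). FANCG stood at 10.6, 10.1 and 9.94 FPKM in the DMSO libraries and 12.4, 10.1 and 14.2 FPKM in the inhibitor libraries. Inhibitor replicate 2 lay within the range of the DMSO libraries and the other inhibitor libraries above it (0.35, adjusted p = 0.0183; adjusted p = 0.294 with all libraries). The remaining subunits were not called either way: the log2 fold changes of FANCC, FANCE and FANCM with all libraries were 0.01, 0.11 and 0.05, and −0.01, 0.16 and −0.07 without inhibitor replicate 2. The subunit FANCB stood at 4.02, 4.68 and 3.95 FPKM in the DMSO libraries and 4.24, 9.36 and 3.55 FPKM in the inhibitor libraries. Only inhibitor replicate 2 was high, and the sign of its fold change turned from 0.27 to −0.09 without it. UBE2T, the ubiquitin-conjugating enzyme that works with FANCL, stood at 32.6, 32.7 and 32.1 FPKM in the DMSO libraries and 30.1, 19.1 and 30.0 FPKM in the inhibitor libraries. All its inhibitor values were below all DMSO values, by little in replicates 1 and 3, and it was not called (log2 fold change −0.32, 95% interval −0.77 to 0.14; −0.11 without inhibitor replicate 2).

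**Figure D2:**
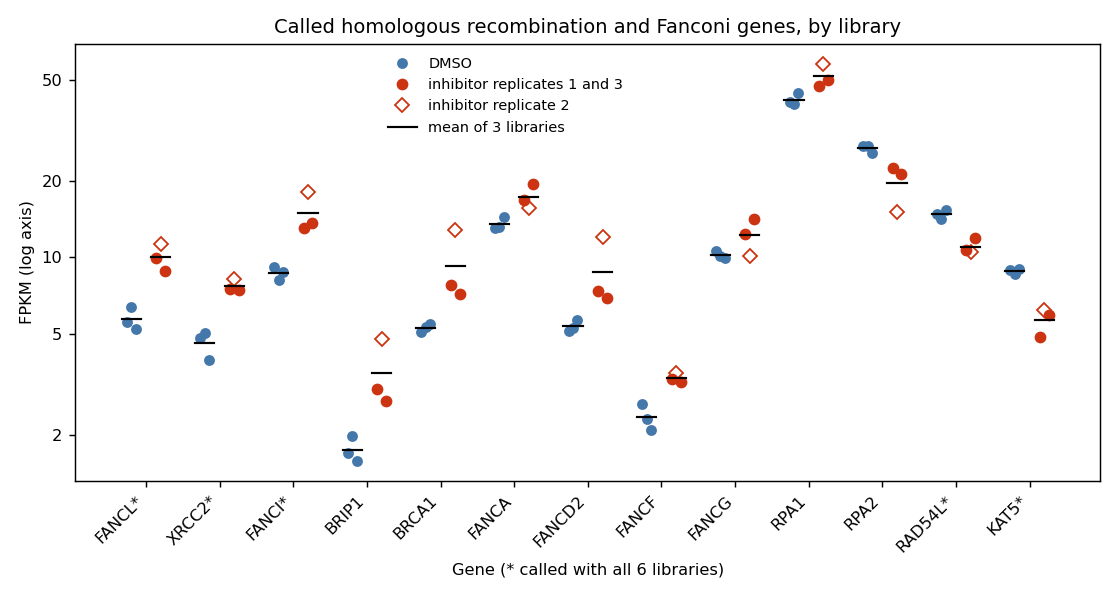
The plot of FPKM by library (y axis, log scale) shows the 13 genes called without inhibitor replicate 2, in DMSO (blue) and with the inhibitor (red; replicate 2 as an open diamond); bars are means of 3 libraries and an asterisk marks the 5 genes also called with all libraries. In FANCD2, BRCA1 and BRIP1 the open diamond stands well above both other inhibitor libraries, in RPA2 and FANCG below them, and in XRCC2, FANCF and RAD54L close to them.

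BRCA1 and the helicase BRIP1, which binds it, were higher in every inhibitor library, whereas BRCA2 and its partner PALB2 were not. BRCA1 stood at 5.07, 5.29 and 5.45 FPKM in the DMSO libraries and 7.78, 12.8 and 7.16 FPKM in the inhibitor libraries. It was not called with all libraries (log2 fold change 0.67, SE 0.21, limma adjusted p = 0.0738) and was called without inhibitor replicate 2 (0.43, SE 0.07, adjusted p = 0.00694). BRIP1 stood at 1.69, 1.98 and 1.58 FPKM in the DMSO libraries and 3.04, 4.75 and 2.71 FPKM in the inhibitor libraries. Its ratio of means was 1.999, higher than for any other of the 39 genes, and it missed the threshold with all libraries (adjusted p = 0.0532; 0.0165 without inhibitor replicate 2). BARD1, the obligate partner of BRCA1 in its ubiquitin ligase, stood at 2.77, 3.57 and 2.29 FPKM in the DMSO libraries and 3.10, 6.07 and 3.48 FPKM in the inhibitor libraries. The groups overlapped. Its log2 fold change was 0.40, and 0.16 without inhibitor replicate 2 (95% interval −0.22 to 0.53), which covers both 0 and the value of BRCA1. BRCA2, the tumour suppressor that acts after resection, stood at 1.29, 1.27 and 1.27 FPKM in the DMSO libraries and 0.954, 3.14 and 1.11 FPKM in the inhibitor libraries. The library with the highest value and the 2 with the lowest were all inhibitor libraries. PALB2, which joins BRCA1 to BRCA2, stood at 4.69, 5.14 and 4.17 FPKM in the DMSO libraries and 4.79, 7.73 and 4.16 FPKM in the inhibitor libraries. It was high in inhibitor replicate 2 alone. The signs of BRCA2 and PALB2 turned from 0.18 and 0.18 to −0.17 and −0.05 without that library, and neither gene was called.

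Of XRCC2, XRCC3, RAD51C and RAD51D, related proteins that act in strand invasion, XRCC2 alone was called. XRCC2 (ENSG00000196584, chromosome 7, 152644779 to 152676165, minus strand) stood at 4.80, 5.02 and 3.94 FPKM in the DMSO libraries and 7.48, 8.22 and 7.46 FPKM in the inhibitor libraries. The inhibitor libraries lay close together and all above DMSO (log2 fold change 0.65, SE 0.12, limma adjusted p = 0.018; 0.61 without inhibitor replicate 2). RAD51C and RAD51D, of the same family, stood at 1.60 ± 0.312 and 1.33 ± 0.156 FPKM in DMSO (SD, n = 3) and at 1.76 ± 0.250 and 1.60 ± 0.148 with the inhibitor, and XRCC3 at 3.06 ± 0.312 and 2.80 ± 0.664. Their log2 fold changes were 0.09, 0.16 and −0.11, with overlapping groups. Leaving out inhibitor replicate 2 gave 0.16 and 0.12 for the former pair and turned the sign of XRCC3, to 0.04. RAD54L (ENSG00000085999, chromosome 1, 46247688 to 46278473, plus strand), a DNA translocase that acts when the broken strand invades the intact duplex, was lower with the inhibitor. It stood at 14.8, 14.2 and 15.3 FPKM in the DMSO libraries and 10.7, 10.5 and 11.9 FPKM in the inhibitor libraries. The groups did not overlap (log2 fold change −0.39, SE 0.10, adjusted p = 0.0473; −0.36 and adjusted p = 0.0122 without inhibitor replicate 2). Its relative RAD54B and the annealing protein RAD52 were not called (−0.05 and −0.12; −0.09 and −0.01 without inhibitor replicate 2).

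Upstream sequence is shown for the called genes FANCL, XRCC2 and RAD54L, since the first pair rose and the other fell while all 3 carry an E2F-like motif. The sequences come from RefSeq promoter windows (GRCh38.p14), of which 36 of the 41 genes had one; FANCI had none, and the KAT5 window lies downstream of the start listed in the table. Only bases upstream of both the RefSeq start and the listed gene start are printed, 5′ to 3′ on the gene's strand, and capitals mark matches on either strand to GGCGGGA or GCGGGAA (cores of E2F sites, which overlap each other), CCAAT or TTTGAA (a cell-cycle homology element).
FANCL, chr2:58241373-58241575, minus strand: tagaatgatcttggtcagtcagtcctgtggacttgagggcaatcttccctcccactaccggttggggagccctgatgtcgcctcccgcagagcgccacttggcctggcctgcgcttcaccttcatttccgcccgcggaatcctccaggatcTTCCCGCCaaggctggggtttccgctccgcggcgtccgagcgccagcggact
XRCC2, chr7:152676166-152676391, minus strand: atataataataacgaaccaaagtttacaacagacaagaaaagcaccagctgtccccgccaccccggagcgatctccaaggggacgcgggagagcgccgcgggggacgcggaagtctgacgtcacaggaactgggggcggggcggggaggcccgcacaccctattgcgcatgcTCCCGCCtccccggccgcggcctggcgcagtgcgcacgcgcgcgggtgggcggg
RAD54L, chr1:46247438-46247687, plus strand: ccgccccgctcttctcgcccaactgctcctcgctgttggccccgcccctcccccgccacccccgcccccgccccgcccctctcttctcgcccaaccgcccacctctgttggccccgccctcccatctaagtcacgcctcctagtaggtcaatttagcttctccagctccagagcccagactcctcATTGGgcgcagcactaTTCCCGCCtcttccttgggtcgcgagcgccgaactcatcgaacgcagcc

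In the 250 bases before the RefSeq start, 11 (30.6%) of the 36 windows held GGCGGGA on either strand, against 13.5% of all 35116 windows of that length. Those 35116 windows were not limited to genes tested here and can hold more than 1 per gene. Each of the 36 genes had 1, the nearest to its listed start, so the sets are unlike. GCGGGAA was in 5 (13.9%) of the 36 against 5.52%, and 2 further E2F-like strings, TTGGCGC and TTTCGCG, were in 3 (8.33%) and 2 (5.56%) against 2.56% and 1.1%. CGCGAA was in 3 (8.33%) against 5.11%, TTTGAA in 4 (11.1%) against 13.3%, and CCAAT in 14 (38.9%) against 32.0%. The windows with GGCGGGA belonged to genes that were called higher (FANCL, XRCC2, and FANCG and RPA1 without inhibitor replicate 2), to RAD54L, which was lower, and to genes that were not called, such as BARD1, BLM and FANCM. All 7 strings were searched after the values had been seen, and a match is a description of the letters only.

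KAT5 was the only gene of break signalling to be called. KAT5 (ENSG00000172977, chromosome 11, 65711996 to 65719604, plus strand), the acetyltransferase TIP60 that acetylates histones and ATM at breaks, stood at 8.91, 8.58 and 9.03 FPKM in the DMSO libraries and 4.86, 6.21 and 5.93 FPKM in the inhibitor libraries. All inhibitor libraries were below all DMSO libraries, at 0.641 of the DMSO mean (log2 fold change −0.57, SE 0.12, limma adjusted p = 0.0246; −0.63 and adjusted p = 0.00415 without inhibitor replicate 2). Of 15 other subunits of the KAT5 complex, all tested, 1 was called, lower: the actin-like subunit ACTL6A went from 25.3 ± 1.28 to 17.9 ± 1.78 FPKM (SD, n = 3; −0.48, adjusted p = 0.0375). Without inhibitor replicate 2 they were 6 lower and 1 higher, that is, 46.7% called beside 40.6% of all genes, with a list median of −0.23. The apical kinases were not called: the log2 fold changes of ATM, ATR, the ATR partner ATRIP and the ATR activator TOPBP1 were 0.24, 0.32, 0.25 and 0.06. ATR stood at 5.33, 5.46 and 4.80 FPKM in the DMSO libraries and 5.59, 9.76 and 5.54 FPKM in the inhibitor libraries. Its inhibitor values were all above DMSO but close to it except in replicate 2. Without that library ATRIP was at 0.18 and TOPBP1 changed sign, to −0.03, while ATM and ATR were at 0.08 and 0.08 (95% intervals −0.14 to 0.30 and −0.11 to 0.28).

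Limma on log2(FPKM + 1) called no gene of end resection or of the crosslink nucleases with or without inhibitor replicate 2; limma-voom called FAN1 higher without it. The nuclease MRE11, its partner NBN, the resection factor RBBP8 (CtIP) and the helicase BLM had log2 fold changes of 0.28, −0.06, 0.37 and 0.09; 0 of the 4 reached an unadjusted p under 0.05 with all libraries, and limma-voom on recovered reads called 0 of them. In the same order, the values without inhibitor replicate 2 were 0.11, −0.20, 0.21 and −0.12, so the sign of BLM turned. RBBP8 stood at 5.79, 5.77 and 4.72 FPKM in the DMSO libraries and 6.53, 9.42 and 6.28 FPKM in the inhibitor libraries. The groups did not overlap, but the closest values were 6.28 and 5.79 FPKM. The junction nuclease MUS81 and its partner EME1 stood out through 1 library: EME1 stood at 10.3, 12.1 and 11.2 FPKM in the DMSO libraries and 11.3, 4.26 and 12.6 FPKM in the inhibitor libraries. MUS81 stood at 6.44, 6.62 and 6.78 FPKM in the DMSO libraries and 5.72, 2.57 and 6.07 FPKM in the inhibitor libraries. Inhibitor replicate 2 was the lowest library for both, and without it their log2 fold changes were −0.14 for MUS81 and 0.08 for EME1 instead of −0.46 and −0.35. The scaffold SLX4 and the nuclease FAN1 were at 0.10 and 0.36. Of the 4 nuclease genes, 1 (FAN1) reached an unadjusted p under 0.05, beside 4697 of all 13578 genes, and limma-voom called 0 with all libraries. Without inhibitor replicate 2, SLX4 was at 0.08 and FAN1 at 0.24 by limma on log2(FPKM + 1), and limma-voom then called FAN1 (0.33, adjusted p = 0.0473).

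The 3 subunits of RPA coat single-stranded DNA as one complex. By limma on log2(FPKM + 1), RPA1 and RPA2 were called only without inhibitor replicate 2, in opposite directions, and RPA3 was not called. RPA1 stood at 40.98, 40.2 and 44.2 FPKM in the DMSO libraries and 47.2, 57.8 and 49.97 FPKM in the inhibitor libraries. All inhibitor values were above DMSO, and it was called higher only without inhibitor replicate 2 (0.21, adjusted p = 0.0496; 0.30 and limma adjusted p = 0.142 with all libraries). RPA2 stood at 27.5, 27.3 and 25.7 FPKM in the DMSO libraries and 22.4, 15.0 and 21.3 FPKM in the inhibitor libraries. All inhibitor values were below DMSO, and it was called lower only without that library (−0.28, adjusted p = 0.0171; −0.45 and adjusted p = 0.108 with all libraries). RPA3 stood at 9.87, 9.19 and 9.03 FPKM in the DMSO libraries and 13.4, 9.18 and 10.7 FPKM in the inhibitor libraries. Its groups overlapped through inhibitor replicate 2, and it was not called by limma (adjusted p = 0.0523 without that library); limma-voom called it higher without that library (0.36, adjusted p = 0.013). Whether the subunits differ from each other in their response was not tested.

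Inhibitor replicate 2 differed from its 2 sister libraries in a way that went with gene length. On the log2(FPKM + 1) scale it was above the mean of replicates 1 and 3 for 27 of the 39 genes and below for 12. The median difference was 0.21, and over all genes tested it was −0.03. The factor per library that scales FPKM did not follow the recovered reads alone, and its part in these differences was not tested. For the 10 genes listed at 8000 bases or more the median difference was 0.43, for the 18 at 4000 to 8000 bases 0.31, and for the 10 at 2000 to 4000 bases −0.11. Over all genes of those lengths the medians were 0.33, 0.03 and −0.29. Below 2000 bases the median of all genes was −0.21, and the 1 member gene there, UBE2T, was at −0.63. Across the 39 genes, which share the same 3 libraries and are not independent, the difference correlated with log10 length at Pearson's r = 0.463 and Spearman's rho = 0.452, given as a description. Over all 13578 genes tested the correlation was weaker, at r = 0.129 and rho = 0.295. The recombination and Fanconi genes are long as a group, with a median listed length of 6067 bases against 4149 for all genes tested. Length alone does not order them: EME1 and FANCB are of like length (3294 and 3593 bases), and replicate 2 was at 0.357 times the mean of the other 2 inhibitor libraries for the former and 2.40 times for the latter.

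**Figure D3:**
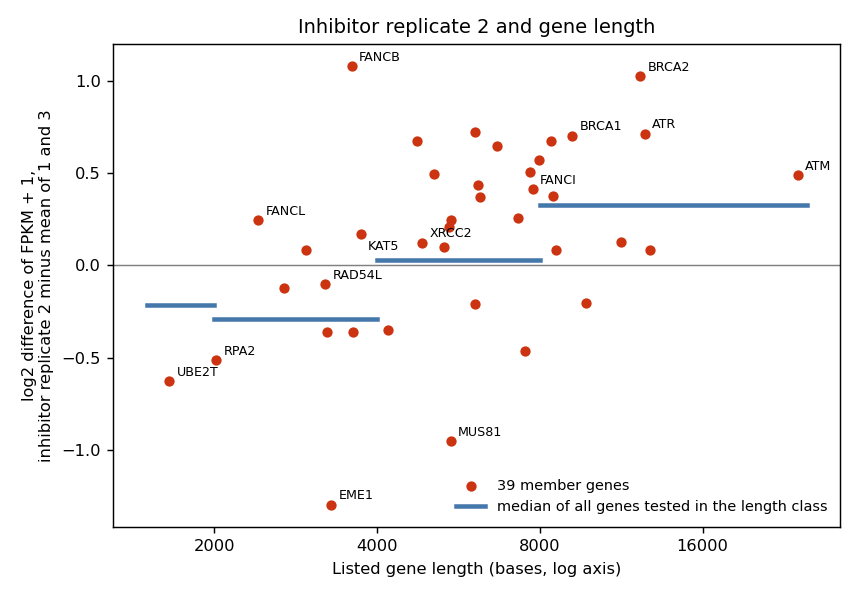
The plot of inhibitor replicate 2 against gene length gives the listed length (x axis, log scale) and the log2 difference of FPKM + 1 between that library and the mean of inhibitor replicates 1 and 3 (y axis) for the 39 genes; blue bars are medians of all genes tested in each length class. The genes at 8000 bases or more lie mostly above 0, UBE2T and RPA2 at the short end lie below it, and EME1 and MUS81 lie lowest.

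When a smooth trend on gene length was taken out of each library, 5 genes were called higher and 0 lower with all 6 libraries, beside 10.1% and 10.8% of all genes (20.9% together). BRCA1 (adjusted p = 0.0368) and BRIP1 (adjusted p = 0.0282) joined FANCL, FANCI and XRCC2, by limma with Benjamini-Hochberg adjustment. KAT5 (−0.46, adjusted p = 0.0664) and RAD54L (−0.26, adjusted p = 0.12) were no longer called. With the trend removed and inhibitor replicate 2 left out, 11 were higher and 3 lower, beside 19.2% and 21.5% of all genes, with KAT5 (−0.59) and RAD54L (−0.32) among the latter and RPA3 (0.37, adjusted p = 0.0325) added to the former.

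Some of these values rest on exons that are shared with another gene. The listed lengths equal the union of exons in GENCODE 29 for all 41 genes, and how reads in shared exons were assigned is not given in the sources used here. RAD50 shares 79.7% of its exon bases on the same strand with AC116366.3, which stood at 0.0051 FPKM in DMSO. RAD54B shares 59.1% with FSBP (0.0429 FPKM), and ATRIP shares 27.9% with the exonuclease gene TREX1, which was listed at 0 in all 6 libraries. So the 3 genes with the largest same-strand overlap include 2 of the lowest levels of the set, RAD50 and RAD54B, and their levels and those of these partners are uncertain. RAD50 encodes the partner of MRE11 and NBN, which stood at 9.47 ± 0.682 and 5.89 ± 0.463 FPKM in DMSO.

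Genes on the opposite strand overlap the exons of several of the called genes, and the sources used here do not state if counting took strand into account. FANCI shares 5.90% of its exon bases with POLG, the mitochondrial DNA polymerase, which fell while FANCI rose (31.7 to 20.1 FPKM; log2 fold change −0.63, adjusted p = 0.0212 by limma). FANCL shares 18.7% with the kinase gene VRK2, which went from 3.76 to 6.21 FPKM (0.57, adjusted p = 0.0961; adjusted p = 0.0215 without inhibitor replicate 2). KAT5 shares 38.6% with RNASEH2C, a ribonuclease subunit, which was at 10.9 and 11.9 FPKM and was called higher only without inhibitor replicate 2 (0.06, adjusted p = 0.878 with all libraries; 0.34 without it). RAD54L shares 25.1% with LRRC41, at 7.77 and 9.14 FPKM (0.21, adjusted p = 0.187). For KAT5, RAD54L and FANCI the fold change of the overlapping gene had the opposite sign, whereas VRK2 had the same sign as FANCL. XRCC2 shares no exon bases with another gene, and XRCC3 shares 76.7% of its own with KLC1, so the level of XRCC3 is uncertain. MUS81 shares 13.9% with the far more abundant actin regulator CFL1 (149 FPKM in DMSO).

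Other genes of DNA repair were counted in lists made by function, with earlier results of these data known. Among 15 tested genes of the wider Fanconi pathway and 18 of the wider recombination pathway, limma called 0 and 0 with all libraries; 0 and 3 had an unadjusted p under 0.05, and limma-voom called 0 and 0. Without inhibitor replicate 2 the wider Fanconi list had 1 called lower by limma (the translesion polymerase REV1, −0.28, adjusted p = 0.0261), or 6.67% beside 40.6% of all genes. Limma-voom then called 7, 4 higher and 3 lower, or 46.7% of the list beside 48.7% of all genes. By limma the recombination list then had 3 called higher (the helicase MCM8, the BLM cofactor RMI2 and ZSWIM7) and 1 lower (EME2), 22.2% of it beside 40.6% of all genes. None of 11 end joining genes and none of 10 genes of the BRCA1-A complex and chromatin ubiquitin signalling was called with all libraries, where 1 and 5 had an unadjusted p under 0.05 and limma-voom called 0 and 1. As the background for these lists, 4697 of all 13578 genes tested had an unadjusted p under 0.05 with all libraries, and limma-voom called 18.8%. Once inhibitor replicate 2 was left out, end joining had 1 higher (the kinase PRKDC) and 1 lower (PAXX), 18.2% of the list beside 40.6% of all genes. The BRCA1-A and ubiquitin list then had 4 lower (UIMC1, BABAM1, RNF8 and MDC1) and 1 higher (BRCC3), 50% of it called beside 40.6% of all genes.

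Of 11 checkpoint genes, the kinase CHEK2 rose from 10.6 ± 1.09 to 17.3 ± 0.780 FPKM (SD, n = 3; log2 fold change 0.67, limma adjusted p = 0.0144) and HUS1, a subunit of the sliding clamp that activates ATR, fell from 5.98 ± 0.320 to 3.76 ± 0.677 (−0.56, adjusted p = 0.0361). The checkpoint counts without inhibitor replicate 2 were 2 higher and 4 lower (54.5% called beside 40.6% of all genes). The added genes were TIMELESS, which was higher, and WEE1, CLSPN and TIPIN, which were lower. As the expression of recombination genes follows the cell cycle, genes of its phases are given beside them. Of 18 S phase genes, 1 higher and 0 lower were called, the riser being the ribonucleotide reductase subunit RRM2 (0.77, adjusted p = 0.0144), with a list median of −0.03. Of 14 genes of G2 and mitosis, 1 higher and 1 lower were called, namely the topoisomerase TOP2A (0.66) and the kinase PLK1 (−0.61), with a list median of −0.13. With all libraries the share called was 18.2% of the checkpoint list, 5.56% of S phase and 14.3% of G2 and mitosis. Of all genes, 17.2% were called, 7.18% higher and 10.0% lower. Leaving out inhibitor replicate 2 gave counts of 3 higher and 1 lower for S phase and 2 higher and 5 lower for G2 and mitosis, that is, 22.2% and 50% called, beside 40.6% of all genes (17.5% higher and 23.1% lower). A part of cell cycle phase in the values of the recombination and Fanconi genes was not tested. CHEK2, HUS1, ACTL6A, RRM2, TOP2A and PLK1 were each called in only 1 or 2 of the 6 fits that left out 1 library (highest adjusted p of each, 0.0731 to 0.166).

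**Figure D4:**
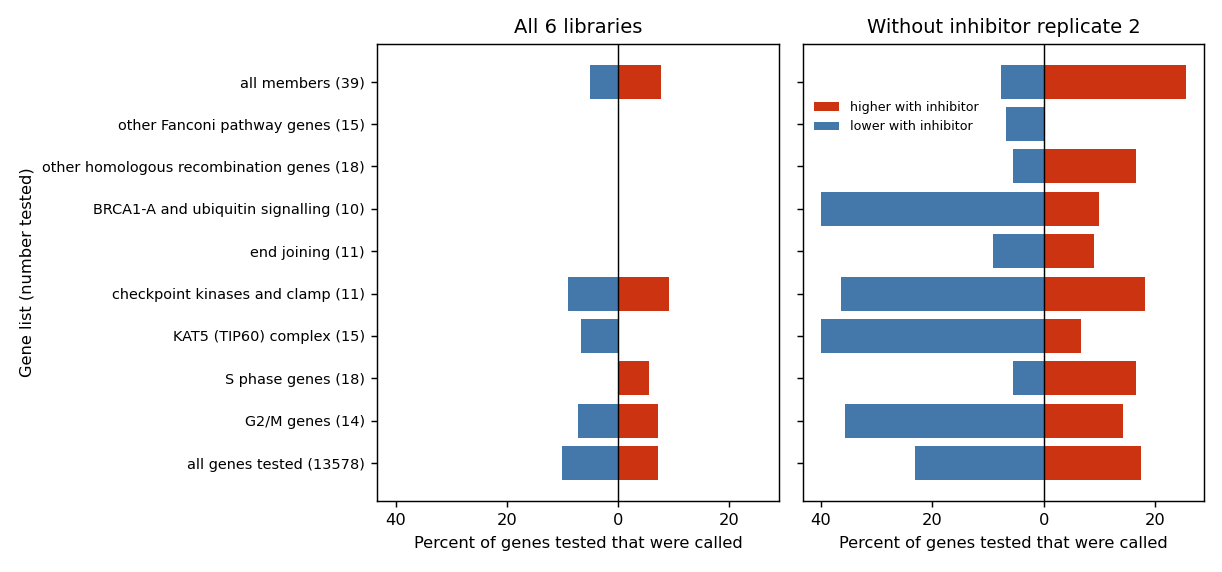
The plot of calls by list gives, for each list on the y axis (number of genes tested in brackets), the percent of its genes called higher (red, to the right) and lower (blue, to the left) with all 6 libraries and without inhibitor replicate 2. With all libraries the share called was 12.8% of the 39 recombination and Fanconi genes, 18.2% of the checkpoint list and 17.2% of all genes tested; without inhibitor replicate 2 the 39 genes had 25.6% higher and 7.69% lower.

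The 5 calls made with all libraries depended on which libraries were included. Without any 1 of the 3 DMSO libraries, limma called 0 of the 39 genes, beside 3.52% to 4.26% of all genes. In each of those 3 fits 7 of the 39 had an unadjusted p under 0.05. The share of all genes at that cut was not counted for those fits, so the 7 have no background. With all 6 libraries, 13 of the 39 passed that cut, beside 4697 of all 13578 genes. Without inhibitor replicate 1 only FANCI was called (beside 8.04% of all genes), and without inhibitor replicate 3 only FANCL and XRCC2 (beside 9.57%). The highest adjusted p of FANCL, FANCI, XRCC2, KAT5 and RAD54L over the 6 fits that left out 1 library was 0.0912, 0.107, 0.0828, 0.113 and 0.18. The direction of each of the 5 was the same in all 6 fits, with log2 fold changes of 0.63 to 0.79 for FANCL, 0.57 to 0.79 for FANCI, 0.56 to 0.70 for XRCC2, −0.63 to −0.48 for KAT5 and −0.44 to −0.36 for RAD54L.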

How the data were processed

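The authors deposited 1 table of FPKM values for 58735 genes, with 1 column per library and a length per gene; the file header names the columns. Per the submitters' processing notes the build is hg38. Per the labels' protocols the library kit was directional; aligner, counter and annotation: not given in the sources used here. FPKM times length gave whole reads times 1 factor per library for 100% of values above 0 (tolerance 0.01 reads), from which reads were recovered. That factor did not follow the recovered reads alone. It was 74.7 for inhibitor replicate 2 (14087260 reads) and 68.3 for DMSO replicate 2 (14201282 reads). For inhibitor replicates 1 and 3 it was 61.0 and 61.3 (15724750 and 15707218 reads). How it was set is not given in the sources used here. No pair of libraries of a group differed by sampling noise alone (chi-square per degree of freedom 2.48 or more), so no libraries were merged.

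The 13578 genes that reached 1 FPKM in 3 or more libraries were fitted as log2(FPKM + 1) with limma 3.58.1 in R 4.3.3 (trend, two-sided, no block), adjusted by Benjamini-Hochberg over all of them; the pseudocount understates changes of low genes. The fit was tested on simulated data. The fit without inhibitor replicate 2 used the same genes. Members, roles, lists and tests were chosen with earlier results of these data known. Values by library are given for genes called in either fit, and up to 3 called genes are named per list; other names were chosen after their values were seen. Alternatives were pseudocounts of 0.1 and 0.5, no filter, a filter at 5 FPKM, TPM, quantile normalization, a loess trend on length (span 0.3), limma-voom on recovered reads, a replicate block and leaving out each library. Python 3.11.15 with pandas 2.3.3 and numpy 2.4.6 was used for tables and matplotlib 3.10.9 for plots.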

Additional observations from a re-analysis of the deposited data

How the results depend on the processing

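Of the 39 recombination and Fanconi genes tested, 5 were called with all libraries, 3 higher and 2 lower. The total was within 1.5 times that number under each scaling, filter, pseudocount and length setting tried and with limma-voom, while the split moved. The number lower was 1 with no filter, 1 with TPM, 1 with quantile normalization, 1 with limma-voom on recovered reads and 0 with the length trend removed, where 5 were higher; the cause was not tested. With the replicate number as a block, 2 were called in all, 2 higher and 0 lower. The filter at 5 FPKM left 22 genes tested, and with no filter all 41 were tested. The share of all genes called was not counted for the replicate block, pseudocounts, filters, TPM or quantile normalization. Deviations of same-numbered libraries correlated at −0.0179, 0.157 and 0.248 over the genes tested, and those of differently numbered libraries at −0.209 to 0.092. The labels give a shared number only, and these values do not settle whether same-numbered libraries form pairs. Leaving out each library in turn gave 0 to 13 called, 0 to 10 higher and 0 to 3 lower, with a median log2 fold change of 0.08 to 0.23. Without inhibitor replicate 2, the 13 calls became 9 of 41 with no filter (6 higher) and 12 of 22 with the filter at 5 FPKM. Under the other settings they were 12 to 15, 12 with the replicate block. None of the 13 genes called in either fit changed sign under any of these settings. The 2 inhibitor libraries left in that fit are assumed to vary like the DMSO libraries. Few reads limit the lowest genes most, RAD50, RAD51B and RAD54B, of which RAD50 and RAD51B were not tested. The levels of RAD50 and RAD54B are also uncertain through their shared exons.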
